A study of Mus musculus with 4 samples.

Results

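The chromatin around Dkk2 was described in adipose progenitors of the mouse, the stromal precursors from which fat cells develop. Dkk2 encodes a secreted dickkopf protein. Dickkopf proteins bind the Wnt co-receptors LRP5 and LRP6, often together with Kremen receptors, and so tune how strongly a cell responds to canonical Wnt ligands. Canonical Wnt signals act through beta-catenin and transcription factors of the TCF/LEF family, and in fat tissue they are known for holding progenitors back from adipocyte differentiation.

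Open chromatin was mapped by ATAC-seq, which relies on a transposase that preferentially reaches accessible DNA and tags it with adapters. Places where tagged reads pile up, called peaks, are read as open sites. There were 2 libraries of visceral progenitors (VAT 1 and VAT 2) and 2 of subcutaneous progenitors (SAT 1 and SAT 2). All came from C57BL/6 mice aged 16 weeks, with no treatment and no engineered allele named in the labels, and the cells were used fresh. Whether each library stands for its own animal, whether animals were pooled and how the progenitors were purified is not stated in the labels, so the spread between libraries of a depot may be technical. The identity of the cells was not checked against marker genes, because no gene annotation of the files' genome build, mm9, was used here.

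The interval comprised every peak that overlapped the 1 Mb of chromosome 3 beginning at position 131000001 on mm9. It takes in Dkk2, whose start lies about 750 kb into it, with 250 kb following that point. It held 93 of the 198854 peaks in the 4 lists. Peaks of different libraries that shared at least 1 bp were merged, which gave 41 regions in the interval out of 83319 in the genome. The interval was chosen by position, but with the peaks and scores of these same libraries known, so the presence of peaks and their scores are given as a description, with no test.

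In RefSeq's gene order on build GRCm38.p6, Dkk2 lies between Papss1, the nearest protein-coding gene upstream, and Gimd1 downstream. Papss1 encodes an enzyme that makes the sulphate donor of the cell. Beyond Papss1 follow Sgms2, a sphingomyelin synthase, then Cyp2u1, Hadh and Lef1, a TCF/LEF factor of the Wnt pathway itself. Between Papss1 and Dkk2 the table lists 3 long non-coding RNAs, 1 pseudogene and 1 small nuclear RNA and no other protein-coding gene. Positions on that build were not carried over to mm9, so no region below is assigned to an exon, an intron or a gene other than by its distance from the approximate Dkk2 start.

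The proximal promoter of Dkk2 is shown because the only peaks near the gene's start came from visceral libraries, as described below. The sequence is the 250 bases before the RefSeq transcription start, from RefSeq on GRCm38.p6, chr3:132085042-132085291, plus strand, written 5′ to 3′. Capitals mark a TATA element (TATAAA) and GC boxes (GGGCGG).

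Dkk2 promoter: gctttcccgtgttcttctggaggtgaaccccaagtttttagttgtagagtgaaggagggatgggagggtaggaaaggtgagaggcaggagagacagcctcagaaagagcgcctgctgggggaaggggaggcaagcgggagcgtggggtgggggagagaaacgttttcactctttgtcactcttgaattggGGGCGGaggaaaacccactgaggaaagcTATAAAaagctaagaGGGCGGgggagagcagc

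The promoter was close to the typical mouse promoter in base composition. Its G and C content was 55.6%, against a median of 52.4% over 32851 promoters of the same length, and it held 7 CpG dinucleotides, against a median of 6. The TATA element began at position -32 relative to the transcription start, and 12.4% of all promoters held these letters on either strand. The GC box occurred 2 times on the plus strand, and 32.7% of all promoters held it on either strand. The letters TGAGTCA of an AP-1 site, which 4.46% of promoters held on either strand, were not in this window. The letters CTTTGAT of a TCF/LEF site, held by 3.21% of promoters on either strand, were not in it either. None of the motif matches overlapped another. Whether a peak covers these 250 bases was not determined, because the peak lists follow mm9.

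The interval carried many peaks in both libraries numbered 1 and fewer in those numbered 2. There were 33 peaks in VAT 1 and 21 in VAT 2, against 32 in SAT 1 and 7 in SAT 2. The mean was 27.0 ± 8.49 peaks in visceral and 19.5 ± 17.7 in subcutaneous progenitors (SD, n = 2 each), so the depots overlapped and the difference of 7.5 peaks was smaller than the spread within the subcutaneous pair. Peaks covered 9.39 kb in VAT 1 and 6.07 kb in VAT 2, against 8.98 kb in SAT 1 and 2.16 kb in SAT 2. Their median widths were alike, at 220 bp in VAT 1 and 206 bp in VAT 2, against 208.5 bp in SAT 1 and 215 bp in SAT 2.

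List length differed between the libraries, and it has to be read beside these counts. The lists held 56907 peaks in VAT 1 and 62279 in VAT 2, against 56823 in SAT 1 and 22845 in SAT 2, and they carry no read counts. With the depth unknown, a site without a peak may still be open. VAT 2 had the longest list and yet only 0.0337% of its peaks in the interval, against 0.0580% in VAT 1, 0.0563% in SAT 1 and 0.0306% in SAT 2. Without SAT 2, which had the shortest list, the visceral mean was 5 peaks below the count of SAT 1. With only the 22845 top-ranked peaks of each list, the interval kept 12 peaks in VAT 1 and 6 in VAT 2, against 12 in SAT 1 and 7 in SAT 2, and the depot means differed by -0.5 peaks (visceral minus subcutaneous).

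Set against the 2526 windows of 1 Mb in the genome that held a merged region, the interval was well filled in VAT 1 and SAT 1 and average in the other lists. VAT 1 had more peaks than here in 686 windows and SAT 1 in 702, and the median window held 19 peaks in each of these libraries. In VAT 2 the interval stood at the median of 21 peaks, and in SAT 2 at the median of 7.

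**Figure D1:**
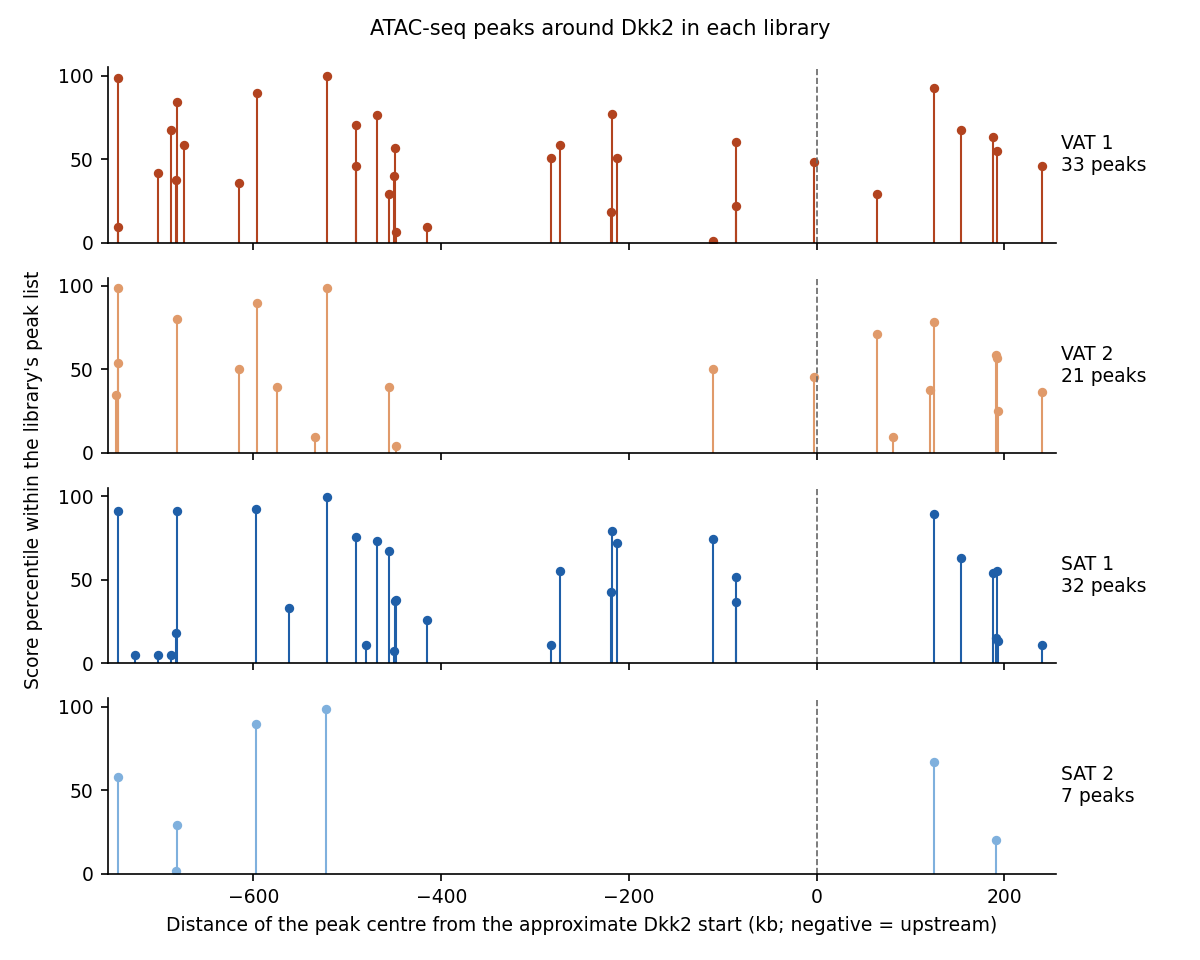
Peaks of each library across the interval, plotted by the distance of the peak centre from the approximate Dkk2 start (x axis, kb, negative values upstream) and by the percentile of the score within that library's list (y axis). Each stem is 1 peak and the dashed line marks the Dkk2 start. VAT 1 and SAT 1 share a series of peaks in the middle of the upstream flank where VAT 2 has few and SAT 2 none; beside the Dkk2 start stand a VAT 1 and a VAT 2 peak and no SAT peak.

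The strength of a peak is given here as the percentile of the authors' peak caller score within its own list, where 50 is the middle of the list. For a region with several peaks of a library, the highest is given. The interval's peaks were ordinary in strength. Their median percentile was 50.6 in VAT 1 and 50.5 in VAT 2, against 47.4 in SAT 1 and 58.1 in SAT 2. At or above the percentile of 80 stood 5 peaks in VAT 1 and 4 in VAT 2, against 5 in SAT 1 and 2 in SAT 2.

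Regions with a peak in all 4 libraries numbered 5 of the 41 (12.2%), while such regions made up 23.2% of all merged regions in the genome. They were wide, from 449 to 1237 bp, and held the 5 strongest peaks of every library. Their median width was 885 bp, against 524 bp over all regions of this kind in the genome. Their percentile in the weakest library had a median of 66.7, against 52.7. Of the 5, 4 lay upstream, far from Dkk2, and 1 lay downstream of its start. Without SAT 2, the regions shared by all remaining libraries numbered 10 of 41 (24.4%), against 42.8% of all regions merged from those 3 lists.

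The strongest of them lay at chr3:131227362-131228246, centred 522.2 kb upstream of the Dkk2 start. Its percentiles were 99.8 in VAT 1 and 98.8 in VAT 2, against 99.7 in SAT 1 and 98.4 in SAT 2. It thus stood near the top of all 4 lists, with scores of 636 and 540 in the visceral and 544 and 319 in the subcutaneous libraries. At chr3:131152629-131153865, the widest region of the interval, the percentiles were also close together, at 89.6 in VAT 1 and 89.7 in VAT 2, against 92.5 in SAT 1 and 89.7 in SAT 2.

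The other regions common to all libraries were strong in 3 of them and lower in SAT 2. At chr3:131005520-131006430 the percentiles were 98.5 in VAT 1 and 98.9 in VAT 2, against 91.1 in SAT 1 and 58.1 in SAT 2. At chr3:131067603-131068450 they were 83.9 and 80.1 in VAT 1 and VAT 2, against 91.4 and 29.4 in SAT 1 and SAT 2. Both regions were divided differently by the peak caller in the libraries: the first held 2 peaks in each visceral library and 1 in each subcutaneous library, and the second held 2 peaks in VAT 1 and SAT 2 and 1 in VAT 2 and SAT 1.

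The common region on the Dkk2 side lay at chr3:131874244-131874692, 124.5 kb beyond the approximate start in the direction of transcription. Its percentiles were 92.5 in VAT 1 and 78.3 in VAT 2, against 89.3 in SAT 1 and 66.7 in SAT 2. With mm9 positions alone, it could not be said whether this region lies within the Dkk2 transcription unit or behind it.

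Near the approximate start of Dkk2, peaks were of middling rank and were found in visceral libraries. The region nearest to the approximate start on its upstream side lay at chr3:131747053-131747298, centred 2.8 kb before that point. It had a percentile of 48.3 in VAT 1 (score 104) and 45.3 in VAT 2 (score 89), and no peak in either subcutaneous list. Both peaks stood just below the middle of their lists.

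The nearest region on the other side lay at chr3:131813622-131814098, 63.9 kb beyond the start, and again held visceral peaks only, at the percentile of 29.0 in VAT 1 and 71.2 in VAT 2. In VAT 2 this peak was 1 of the 6 that ranked among its 22845 highest. The third region of this kind lay far upstream, at chr3:131133966-131134322, with percentiles of 35.4 in VAT 1 and 50.5 in VAT 2. Regions with a peak in both visceral and neither subcutaneous library therefore numbered 3 of 41 (7.32%), while 4.60% of all merged regions were of this kind. Regions with a peak in both subcutaneous and neither visceral library numbered 0 of 41, against 0.110% of all merged regions.

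In each of these 3 regions at least 1 peak ranked in the lower 50% of its list. With the top 50% of each list, and likewise with lists of equal length, the interval therefore held 0 regions of this kind, of 23 and 18. Over all regions the share was 4.72% with the top 50% and 1.81% with equal-length lists. Leaving out SAT 2 kept the count at 3, which could not have fallen, because regions of this kind hold no SAT 2 peak by definition. When VAT 1 or VAT 2 was left out, so that a single library stood for the visceral depot, the class held 8 of 41 and 5 of 37 regions, where 26.6% and 16.7% of all regions were of this kind. Without SAT 1 it held 8 of 39, against 26.0% of all regions. These shares of the interval's regions, 19.5%, 13.5% and 20.5%, lay below those of all regions, whereas with all 4 libraries the interval's share lay above.

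The stretch around the Dkk2 start was the longest part of the interval without a SAT 1 peak. It ran over 209.7 kb, from 131664512 to 131874243. Wholly inside it lay 2 peaks of VAT 1 and 4 of VAT 2, against 0 of SAT 1 and 0 of SAT 2. A further VAT 1 peak, at chr3:131664199-131664545, reached into its edge. This stretch was picked after the values were seen, and in SAT 2 it forms part of a longer empty stretch of 646.4 kb. Besides the regions named above, it held VAT 2 peaks at chr3:131831576-131831673, at the percentile of 9.8, and at chr3:131870595-131870707, at the percentile of 37.4. In a bulk library, a site open in fewer cells and a site less open in each cell cannot be told apart.

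The largest class of regions was shared by VAT 1 and SAT 1 and had no peak in VAT 2 or SAT 2. It numbered 16 of 41 regions (39.0%), while 9.37% of all merged regions were of this kind. Only 6 of the 2526 windows of 1 Mb held more such regions than the interval, and 1 other window held as many; the median window held 2. Among the 1566 windows with at least 20 merged regions, 2 had a higher share. This class follows the replicate number in the labels and not the depot, and the labels do not say what the number stands for. Regions with a peak in both VAT 2 and SAT 2 and in neither of the other libraries numbered 0, against 0.652% of all merged regions.

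**Figure D2:**
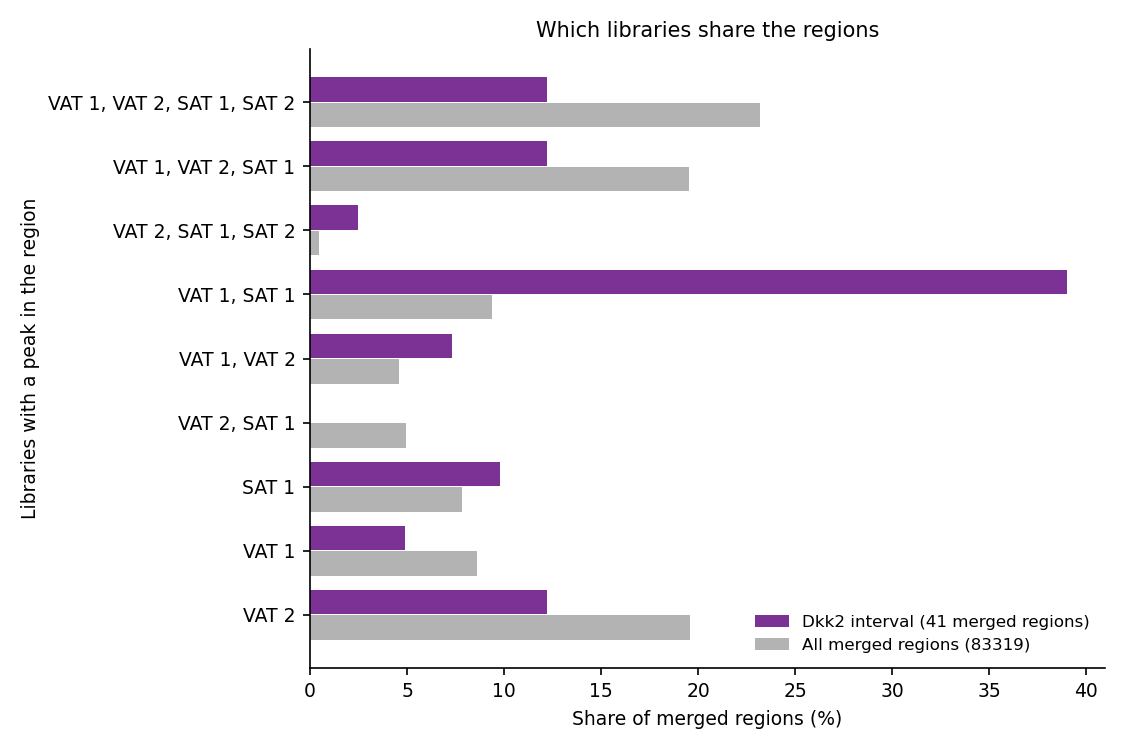
Share of merged regions (x axis, percent) by the libraries that had a peak in them (y axis), for the 41 regions of the Dkk2 interval (purple) and all 83319 merged regions (grey). Classes with no region in the interval are shown where they exceed 4% of the genome's regions. The regions of VAT 1 and SAT 1 only stand out at 39.0% against 9.37%.

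**Figure D3:**
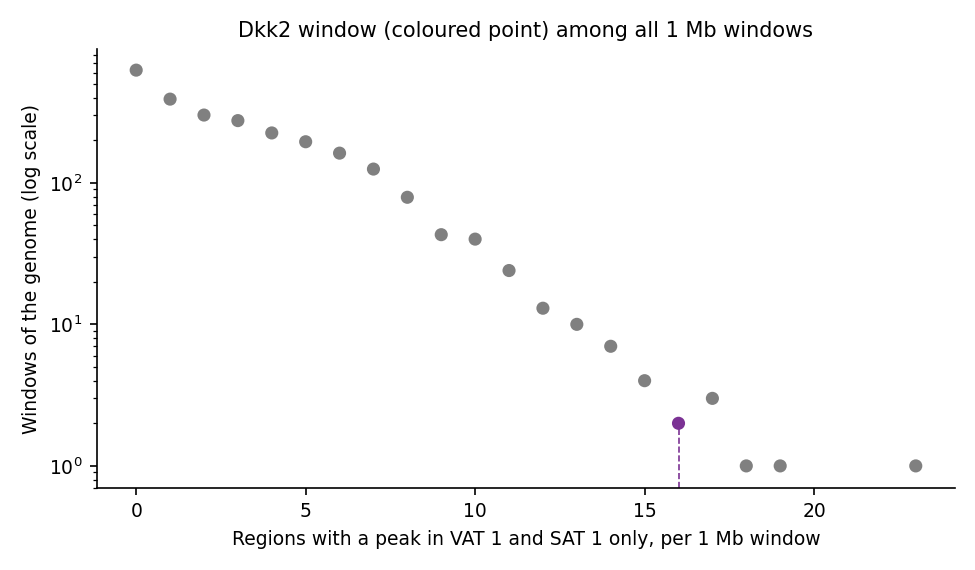
Number of 1 Mb windows of the genome (y axis, log scale) by how many regions with a peak in VAT 1 and SAT 1 only they hold (x axis). The coloured point, at 16 regions, stands for the Dkk2 window and 1 other; 6 windows lie to its right.

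Of these 16 regions, 14 lay upstream of the Dkk2 start and 2 beyond it. Of all regions in the interval, 32 lay upstream and 9 beyond, over 750 and 250 kb. A run of 7 regions of this class in a row lay in the upstream flank from 131301814 to 131537146, over 235 kb. Within the run, 131991 bp between positions 131334844 and 131466836 held no peak in any library. VAT 2 had its longest empty stretch there, of 337.5 kb. Wholly inside it lay 0 peaks of VAT 2 and 0 of SAT 2, and 7 each of VAT 1 and SAT 1. A further SAT 1 peak, at chr3:131638977-131639166, reached into its edge. This stretch was picked as the longest one without a VAT 2 peak, so the absence of VAT 2 peaks follows from the choice. In SAT 2 it forms part of a longer empty stretch of 646.4 kb. The distance from each of the 16 regions to the nearest VAT 2 peak in the interval had a median of 27.1 kb, and in 1 region a VAT 2 peak lay within 1 kb. SAT 2 had 0 peaks within 1 kb of any of these regions. Regions of this class overlap no VAT 2 or SAT 2 peak by definition, and the interval held 21 VAT 2 and 7 SAT 2 peaks. Distances were not computed for other regions, so no conclusion is drawn from them.

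The strongest region of this class lay at chr3:131531542-131531811, 218.3 kb upstream of the Dkk2 start. Its percentile was 76.7 in VAT 1 (score 204) and 79.4 in SAT 1 (score 196). The next lay at chr3:131281501-131281865, with 76.1 in VAT 1 and 73.4 in SAT 1, and was followed by chr3:131258553-131258867, with 70.3 in VAT 1 and 75.7 in SAT 1. In these 3 regions the ranks in VAT 1 and SAT 1 were close. They were picked for a high percentile in the weaker library, which favours close ranks. Elsewhere in the class the ranks could lie far apart. At chr3:131061994-131062190, picked after its values were seen, they were 67.6 in VAT 1 and 5.2 in SAT 1. The 3 strongest regions kept this class when the lists were cut to equal length. So did another region, downstream of the Dkk2 start at chr3:131903723-131904233, with 67.6 in VAT 1 and 63.0 in SAT 1.

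Across the whole class the percentiles ran from 6.1 to 76.7 in VAT 1, with a median of 54.6, and from 5.2 to 79.4 in SAT 1, with a median of 47.4. In 8 of the 16 regions both peaks ranked in the upper part of their lists, at 50 or more, and in 0 of them did both reach 80. The share of such regions over the genome was not computed. The percentile in the weaker library had a median of 36.3, against 25.7 over all regions of this class in the genome. The percentile was higher in VAT 1 in 9 regions and higher in SAT 1 in 7. The regions were 125 to 511 bp wide, against 449 to 1237 bp for those common to all libraries. Over the genome these classes differed in the same direction, with median widths of 222 and 524 bp.

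Without SAT 2, 16 regions were found in VAT 1 and SAT 1 and not in VAT 2, against 9.65% of all regions merged from those 3 lists. This count could not have fallen, because regions of the class hold no SAT 2 peak by definition. Without VAT 2, 21 of 37 regions (56.8%) were in VAT 1 and SAT 1 and not in SAT 2, against 35.6% of all regions. Among strong peaks the class held fewer regions, as did the interval. With the top 50% of each list it held 8 of 23 regions (34.8%), where 9.34% of all regions were of this kind. With lists of equal length it held 4 of 18 (22.2%), where the share of all regions was 7.35%. With the full lists its share of the interval was 39.0%.

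**Figure D4:**
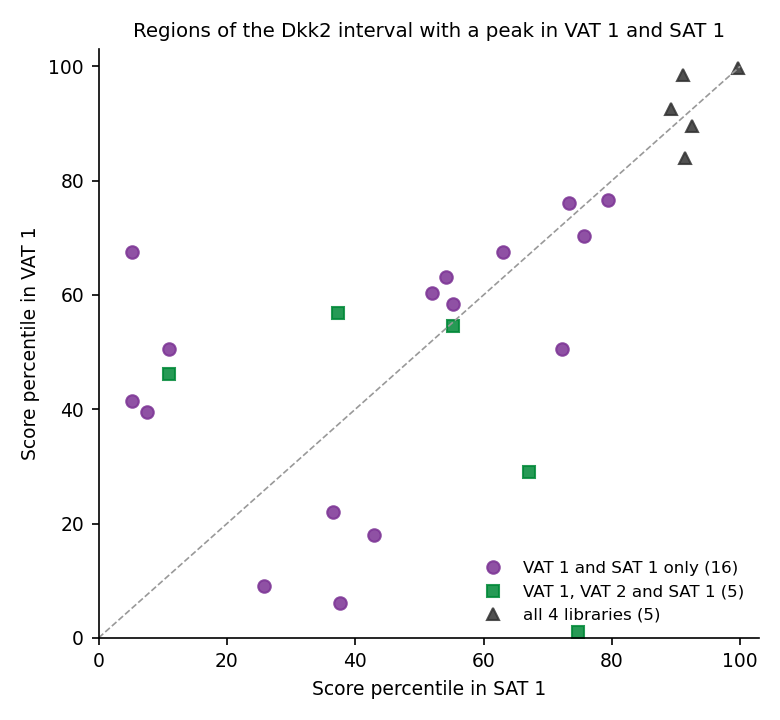
Score percentile in VAT 1 (y axis) against that in SAT 1 (x axis) for the 26 regions of the interval with a peak in both libraries; the dashed line marks equal percentiles. Triangles are the 5 regions common to all libraries, which lie at 83.9 or above in VAT 1, squares the 5 regions with a further peak in VAT 2, and circles the 16 regions of VAT 1 and SAT 1 only.

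Taken by pairs of libraries, VAT 1 and SAT 1 shared 26 of the 31 regions that each of them held, or 83.9% of each list's regions. Over the whole genome this pair shared 79.2% of the VAT 1 and 79.7% of the SAT 1 regions, so the share in the interval was near the general one. VAT 1 and VAT 2 shared 13 regions, which was 41.9% of the VAT 1 and 68.4% of the VAT 2 regions, while over the whole genome they shared 72.3% and 65.0%. SAT 1 and SAT 2 shared 6 regions, which was 19.4% of the SAT 1 regions and all of the 6 held by SAT 2, while over the whole genome they shared 36.6% and 93.8%. Within depots, the interval thus lay below the general share for the VAT 1 regions also held by VAT 2. It also lay below it for the SAT 1 regions also held by SAT 2, and near it for the VAT 2 and the SAT 2 regions. Shares were also lower between libraries that differed in both depot and number. VAT 2 held 35.5% of the SAT 1 regions, against 73.2% over the genome, and SAT 2 held 16.1% of the VAT 1 regions, against 36.4%. SAT 2 held 31.6% of the VAT 2 regions, near the general 33.8%.

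Regions with a peak in VAT 1, VAT 2 and SAT 1 but not in SAT 2 numbered 5 of 41 (12.2%), against 19.5% of all merged regions. The strongest of them lay 192.5 kb beyond the Dkk2 start, at chr3:131942219-131942844, with percentiles of 54.6 in VAT 1 and 57.0 in VAT 2, against 55.2 in SAT 1. At chr3:131293942-131294169 the percentiles were 29.0 in VAT 1 and 39.3 in VAT 2, against 67.1 in SAT 1. At chr3:131989960-131990293 they were 46.1 in VAT 1 and 36.6 in VAT 2, against 10.9 in SAT 1. The 3 ranks lay close together in the first of these regions and apart in the others. Of this class, the region nearest to Dkk2 lay 110.9 kb upstream, at chr3:131638977-131639247, and was picked after its values were seen. It had percentiles of 1.1 in VAT 1 and 50.5 in VAT 2, against 74.7 in SAT 1.

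A single region, at chr3:131940789-131941024, had a peak in every library except VAT 1, against 0.457% of all merged regions. Its percentile was 58.9 in VAT 2, against 15.0 in SAT 1 and 19.9 in SAT 2. It lay 190.9 kb beyond the Dkk2 start, between a region of VAT 1 and SAT 1 only at 188.0 kb and the 3-library region at 192.5 kb. The other combinations of libraries had 0 regions in the interval. Their shares of all merged regions were 4.93% for VAT 2 with SAT 1, 0.0960% for VAT 1 with SAT 2, 0.468% for all but SAT 1 and 0.245% for all but VAT 2.

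The remaining 11 regions had a peak in 1 library. They numbered 2 in VAT 1 and 5 in VAT 2, against 4 in SAT 1 and 0 in SAT 2. Of all merged regions, 8.58% were found in VAT 1 alone and 19.6% in VAT 2 alone, against 7.84% in SAT 1 alone and 0.360% in SAT 2 alone. The strongest was a VAT 1 peak at chr3:131076074-131076190, at the percentile of 58.5, and the other VAT 1 peak, at chr3:131258933-131259087, stood at 46.1.

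The strongest VAT 2 peak of this kind lay at chr3:131174729-131174841, at the percentile of 39.3, followed by the one at 131870595 given above and one at chr3:131002983-131003082 with 34.9. The strongest SAT 1 peaks stood lower, with 33.0 at chr3:131187302-131187411, 17.9 at chr3:131067455-131067584 and 10.9 at chr3:131270083-131270211. Regions of SAT 1 alone were the only ones in the interval with a subcutaneous and no visceral peak.

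Along the interval, 32 regions lay upstream of the approximate Dkk2 start and 9 beyond it, or 4.27 and 3.60 regions per 100 kb. The longest stretch with no peak in any library lay in the upstream flank and ran over 131991 bp, between positions 131334844 and 131466836, and a further 82.5 kb without a peak lay directly before the region nearest to the Dkk2 start. At the edges, the first region inside the interval was the VAT 2 peak at 131002983, and the last was the 3-library region at 131989960. Just outside lay a region common to all 4 libraries at chr3:130974579-130975298, with percentiles of 78.4 in VAT 1 and 77.9 in VAT 2, against 85.5 in SAT 1 and 26.3 in SAT 2, and on the other side a VAT 2 peak at chr3:132028097-132028396 with 39.3.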

How the data were processed

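The series holds 4 ATAC-seq libraries, grouped and numbered by their titles. Per the submitters' processing notes, the authors used Bowtie2 and MACS2 on build mm9; their versions and options, duplicate removal, read shifting and repeat filtering were not given in the sources used here. Peaks were called per library. The score in column 5 of the authors' deposited lists, a whole number of 20 or more, has no stated scale. It served only for percentiles within each list, in which tied peaks share the middle rank. Positions were converted to count from 1.

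Peaks sharing at least 1 bp were merged, and each region was assigned to the libraries whose peaks it contained. Windows of 1 Mb were assigned by region or peak centre. The members were chosen with earlier results of these data known, so no test was run. The regions named were all those in all 4 libraries or in both libraries of 1 depot only, the 3 of each other class with the highest percentile in their weakest library, and those nearest to the Dkk2 start on each side; others were picked after their values were seen. Marker and Wnt pathway gene lists needed an mm9 annotation and were not analysed here. Promoter sequence came from RefSeq. The interval code was tested on simulated data and against bedtools 2.31.1. Python 3.11.15, numpy 2.4.6, pandas 2.3.3 and matplotlib 3.10.9 were used.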

Additional observations from a re-analysis of the deposited data

How the results depend on the processing

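The counts rest on peak lists of unknown depth and unequal length, and the comparison of depots turned on SAT 2. The difference in mean peaks (7.5, visceral minus subcutaneous) was -0.5 with equal-length lists and ran from -5 to 20 peaks on leaving out each library in turn. The difference in covered length (2163 bp) then ran from -1245 to 5571 bp. Both were negative without SAT 2. With equal-length lists the interval held 18 regions, 13 upstream of the Dkk2 start and 5 beyond it, of which 4 were in VAT 1 and SAT 1 only and 0 in both visceral libraries only. With the top 50% of each list these were 23 regions, 17 upstream, 8 and 0. In the 0.5 Mb nearer to Dkk2 there were 16 regions, 7 upstream, 1 common to all libraries and 7 in VAT 1 and SAT 1 only. With 50% reciprocal overlap 14 regions lay beyond the start. Leaving out 1 library gave 5 to 10 common regions, 3 to 8 visceral, 0 to 4 subcutaneous, 16 to 21 of number 1 only and 0 to 5 of number 2 only, where 1 library then stands for a pair. The shares of all regions moved as well, to between 25.5% and 42.8% for common, 5.09% and 26.6% for visceral, 0.388% and 7.99% for subcutaneous, 9.65% and 35.6% for number 1 only and 1.20% and 20.3% for number 2 only. The remaining 86 recomputed values kept their direction, with counts within 1.5 times those given above. Differences moved by no more than the SD of the subcutaneous libraries (17.7 peaks, 4.82 kb). Without SAT 1 they moved by more than the visceral SD (8.49 peaks, 2.35 kb). Some of the 86 could not change: peak counts and covered length do not depend on how peaks are merged. Nor could the regions beyond the start change in the nearer part, which holds them all. Paired by replicate number, with no test, the replicate block gave the same mean difference of 7.5 peaks. It had to, since each depot holds each number once. The difference was 1 peak within number 1 and 14 within number 2. Over all merged regions, presence of a peak deviated together within numbers (Pearson's r = 0.231 across regions, which are not replicates), but the labels do not say that a number marks a shared batch.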
